A study of Mus musculus with 6 samples.

Results

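The densely seeded cultures of mesenchymal stem cells from mouse bone marrow accounted for 3 of the 6 arrays of the study, chosen by their confluence label, with 1 array for each of days 1, 2 and 3 after seeding. Mesenchymal stem cells are the adherent stromal cells of marrow, which can form bone, fat and cartilage in culture. Each dense culture had received 2500000 cells and each sparse culture 15000 cells, and total RNA was taken on the 3 days. The sparse cultures, again with 1 array per day, serve here only as background for what passing time did at low density. All 6 cultures were of cells taken from mouse marrow and grown in a commercial stem cell medium, and whether they came from a single isolate is not given. Their titles carry a common tag whose meaning is not stated, and the strain, genotype and age of the mice and the number of animals are not given in these sources. The labels call the cell samples independent, but with 1 array per density and day the spread between cultures of the same day is unknown. Differences between days are therefore given as measured values with no test.

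Values are log2 intensities after robust multi-array averaging, so that a difference of 1 is a 2-fold difference and values near 3 lie close to the background of the array. In the dense arrays the medians over all probe sets ran from 4.33 to 4.42. Of 22349 named genes, 16762 had a mean over the 6 arrays at or above the 25th percentile of named genes (3.32) and were kept. The median change over these genes in dense cultures was −0.0006 from day 1 to 2, 0.024 from day 2 to 3 and 0.036 from day 1 to 3 (log2). Robust multi-array averaging equalises the arrays, so these medians are largely set by it. A lower value of a gene can come from fewer cells of the kind that makes its RNA or from less of that RNA per cell, and the 2 cannot be told apart in bulk cultures.

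Stromal genes were well above background on all 3 days, but as a list they were not steady. The 20 stromal stem cell and niche genes past the filter had median log2 levels of 7.85, 7.21 and 6.68 on days 1, 2 and 3. From day 2 to 3, 15 of them were lower and 5 higher, and from day 1 to 3, 12 were lower and 8 higher. Pdgfra, a growth factor receptor of stromal cells, had log2 values of 9.37, 9.53 and 9.07 on days 1, 2 and 3, and Cxcl12, the chemokine that holds blood stem cells in the marrow, had 10.47, 11.27 and 10.96. Ptprc, the pan-leukocyte antigen CD45, was at 2.95, 3.21 and 3.14, below the filter. Of the markers of other marrow cells, 6 of 14 for macrophages and leukocytes, 5 of 9 for granulocytes, 5 of 8 for lymphocytes, 8 of 11 for erythroid cells and megakaryocytes, 10 of 13 for endothelium and 4 of 8 for osteoclasts passed the filter. Over those that passed, the median change from day 1 to 3 was −0.02, 0.06, 0.13, 0.22, 0.10 and 0.38 in that order, beside 0.036 over all genes. With the filter raised to the median of named genes these medians were −0.80 for macrophages and leukocytes, −0.11 for endothelium and 1.66 for osteoclasts, and no granulocyte or lymphocyte marker was left. The first 2 of these values match the lowest change of any member of their lists, and the osteoclast value is that of Ctsk. Such values rest on very few genes and do not describe the lists. At the 25th percentile the median log2 levels of the 6 lists in the dense arrays lay between 3.57 and 4.40. Among these markers only Ctsk, the collagen-cutting protease cathepsin K of osteoclasts and of many stromal cells, was past 2-fold, with 6.64, 7.12 and 8.30. The osteoclast markers Calcr and Atp6v0d2 stayed under the filter.

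When cultured stromal cells fill the dish they usually leave the cell cycle, a response called contact inhibition of proliferation. Crowding also limits spreading, which in many cell types moves the coactivators YAP and TAZ out of the nucleus, and a crowded culture uses up the amino acids, lipids and oxygen of its medium faster. Cells meet a shortage of amino acids through the kinase GCN2 and the transcription factor ATF4, and a shortage of sterols through the factor SREBP2, each of which switches on its own set of genes. The lists below follow these pathways and the marrow stromal lineages.

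More genes differed between days in the dense than in the sparse cultures, and most of the difference arose after day 2. From day 1 to 2, 173 genes were at least 2-fold higher and 44 at least 2-fold lower in the dense cultures, which is 1.03% and 0.262% of the genes kept. The 44 became 77 when arrays were centred on their medians. From day 2 to 3, 174 genes (1.04%) were higher and 286 (1.71%) lower. Over the whole span from day 1 to 3, 369 genes (2.20%) were higher and 481 (2.87%) lower. In the sparse cultures the same counts were 46 (0.274%) higher and 84 (0.501%) lower from day 1 to 2. They were 28 (0.167%) higher and 18 (0.107%) lower from day 2 to 3, and 137 (0.817%) higher and 221 (1.32%) lower from day 1 to 3. The step from day 2 to 3 was the larger step for 225 of the 369 genes that were higher on day 3 (61.0%) and for 395 of the 481 that were lower (82.1%). The bulk of genes differed less: the median absolute change from day 2 to 3 was 0.19 in dense and 0.14 in sparse cultures. Changes of single genes on that step ran from −2.55 to 4.66 in dense and from −2.18 to 1.66 in sparse cultures. From day 1 to 2 the sparse range was the wider one, from −4.10 to 2.91 against −1.68 to 2.87 in dense cultures. From day 1 to 3 single genes ran from −2.87 to 5.05 in dense and from −4.74 to 4.13 in sparse cultures.

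**Figure D1:**
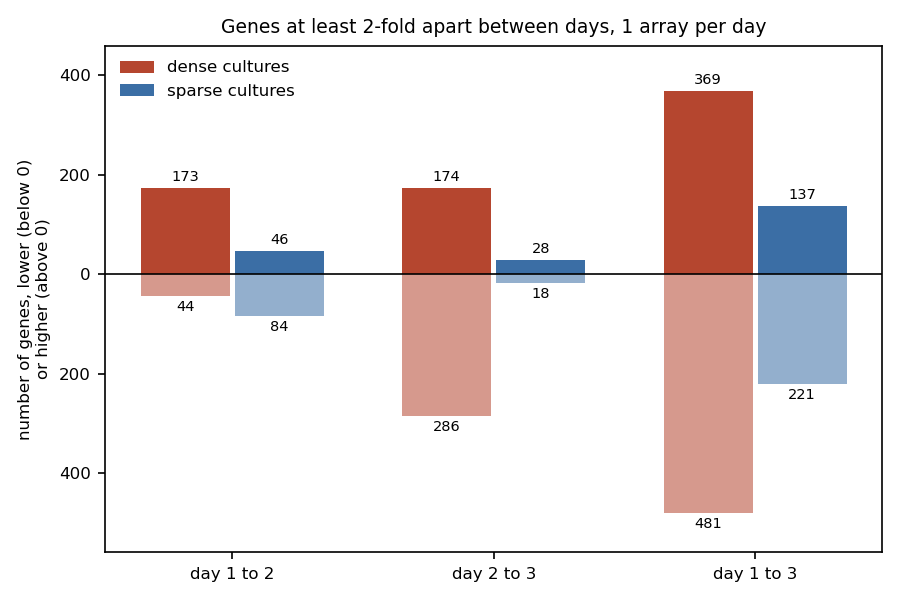
Number of genes (y axis) at least 2-fold higher (bars above 0) or at least 2-fold lower (pale bars below 0) between days in the dense (red) and sparse (blue) cultures, 1 array per day and 16762 genes. In dense cultures 286 genes were lower on day 3 than on day 2, against 18 in sparse cultures.

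The genes past 2-fold from day 1 to 3 were set side by side at the 2 densities. Of the 369 genes that were higher on day 3 than on day 1 in dense cultures, 7 (1.90%) were also at least 2-fold higher in sparse cultures, which is 5.11% of the 137 sparse genes, beside 2.20% of all genes that were higher in dense cultures. Of the 481 that were lower, 31 (6.44%) were also lower in sparse cultures, which is 14% of the 221 sparse genes, beside 2.87% of all genes. In opposite directions, 26 genes were lower in dense and higher in sparse cultures (5.41% of the dense and 19% of the sparse genes). A further 11 were higher in dense and lower in sparse cultures (2.98% and 4.98%). Over all genes, 2.87% were lower and 2.20% higher in dense cultures, and 0.817% were higher and 1.32% lower in sparse cultures. Over all genes kept, 551 were at least 2-fold higher and 181 at least 2-fold lower in dense than in sparse arrays on day 1. On day 2 the counts were 988 and 216, and on day 3 they were 1073 and 493.

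Each gene was also sorted by its 2 steps, with a step counted as up or down past 1.5-fold and as flat otherwise. In dense cultures 682 genes were flat and then down, against 117 in sparse cultures, and 529 were flat and then up, against 157. A group of 480 genes was up and then flat (357 in sparse cultures), and 277 were down and then flat, where the sparse cultures had more, 524. Reversals were commoner in dense cultures, with 149 genes up and then down (20 in sparse) and 44 down and then up (12 in sparse). Steady movers were 55 up on both steps and 117 down on both, against 18 and 34 in sparse cultures. Most genes, 14429 in dense and 15523 in sparse cultures, passed 1.5-fold on neither step. Both steps share the day 2 array, so an array value that is off for a gene on that day would show as a reversal.

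**Figure D2:**
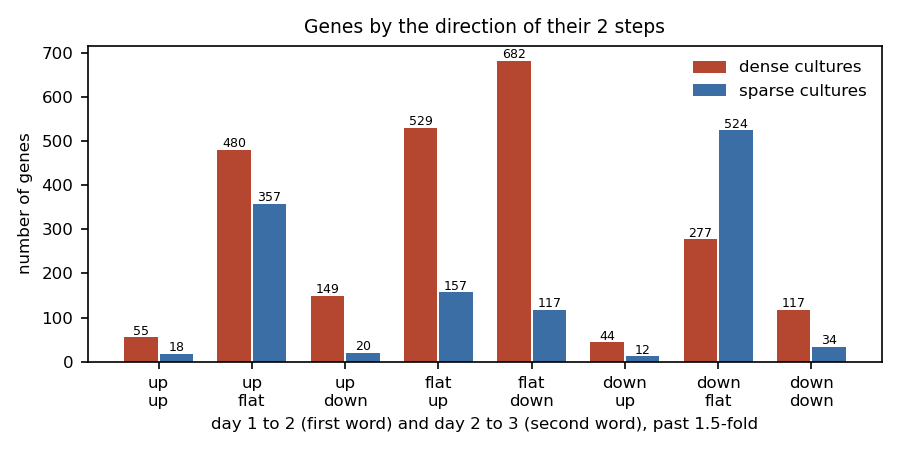
Number of genes (y axis) by the direction of their steps from day 1 to 2 (first word) and from day 2 to 3 (second word), each past 1.5-fold, in dense (red) and sparse (blue) cultures; genes flat on both steps are left out. Flat then down was the commonest pattern in dense cultures, with 682 genes, and down then flat in sparse cultures, with 524.

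Genes of cell division were lower on each day than on the day before. The 30 genes of G2 phase and mitosis (cyclins, mitotic kinases, kinesins, kinetochore and checkpoint proteins) all passed the filter, and all 30 were at least 2-fold lower on day 3 than on day 1, beside 2.87% of all genes. Their median change was −0.69 from day 1 to 2, −1.49 from day 2 to 3 and −2.21 from day 1 to 3. In the sparse cultures their median change from day 1 to 3 was −0.25, and 0 of the 30 were past 2-fold. All 30 were already below their day 1 value on day 2, with changes from −1.05 to −0.27, and all 30 were lower again on day 3. The last step passed 2-fold for 27 of them, beside 1.71% of all genes. Of the 30, 22 were down past 1.5-fold on both steps, a pattern of 0.698% of all genes.

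Mki67, whose protein Ki-67 coats mitotic chromosomes and marks cycling cells, had log2 values of 9.24, 8.54 and 6.37 on days 1, 2 and 3 in the dense cultures, a difference of −2.87 from day 1 to 3. The sparse arrays gave 9.16, 8.76 and 8.82, so the 2 densities started level and parted after day 2. Ccnb2, a B-type cyclin that drives entry into mitosis, had 9.54, 8.82 and 6.95 in the dense arrays. The mitotic kinase gene Plk1 had 9.36, 8.51 and 6.87, and the kinetochore gene Cenpf had 8.30, 7.58 and 5.72. Nusap1, which bundles spindle microtubules, stood at 7.60, 6.93 and 5.04. Each of these had its lowest value on day 3, and none of the sparse values of Plk1 (9.29, 9.23 and 9.17) came as low as the dense value of day 2. Birc5, the survivin subunit of the chromosomal passenger complex, had 7.99, 6.94 and 5.58.

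Promoters of these genes are printed because many share a short element. Genes switched off outside of G2 phase and mitosis often carry a cell cycle homology region, whose core letters are TTTGAA, close to CCAAT boxes. In RefSeq promoter windows of assembly GRCm38.p6 (250 bases before to 50 after the start, either strand, any start of a gene), TTTGAA was found in 19 of the 26 list members with a window (73.1%) and in 20.2% of all 27025 genes with a window. CCAAT was found in 20 of the 26 (76.9%) and in 41.1% of all genes. The stretches below end before the start of the gene and are written 5′ to 3′ along the gene's strand, with each TTTGAA, or its reverse complement TTCAAA, in capitals. They lie at chr10:69352943-69353018 (minus strand) for Cdk1, the kinase that triggers mitosis, at chr7:135716455-135716530 (minus) for Mki67, at chr4:118437344-118437396 (minus) for Cdc20, an activator of the anaphase-promoting complex, and at chr2:164769865-164769928 (plus) for Ube2c, the ubiquitin-conjugating enzyme of that complex.
Cdk1: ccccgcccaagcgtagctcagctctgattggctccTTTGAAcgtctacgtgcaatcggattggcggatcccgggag
Mki67: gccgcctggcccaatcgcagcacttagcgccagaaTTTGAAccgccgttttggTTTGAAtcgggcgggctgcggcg
Cdc20: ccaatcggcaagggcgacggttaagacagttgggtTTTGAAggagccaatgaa
Ube2c: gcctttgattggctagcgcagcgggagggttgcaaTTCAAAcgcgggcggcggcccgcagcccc
Cdk1 holds TTTGAA once more, at −15 from its start, past the end of the stretch printed. These matches describe the letters in the windows and were not tested as binding sites.

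Genes of DNA replication were lower by smaller amounts. Of 30 replication and S phase genes, 21 were at least 2-fold lower on day 3 than on day 1 and 0 higher. The shares over all genes were 2.87% and 2.20%. Median changes of the list were −0.42, −0.76 and −1.30 over the 3 intervals, and −0.24 from day 1 to 3 in sparse cultures. Rrm2, the subunit of ribonucleotide reductase that limits the supply of DNA building blocks, had 9.29, 8.35 and 6.54 in dense and 9.42, 9.45 and 9.53 in sparse arrays. The cyclin gene Ccna2 had 10.13, 9.47 and 7.60, Tk1 (thymidine kinase) 9.14, 8.46 and 6.88, and the replication fork gene Gins1 6.45, 5.88 and 4.36. Prim1, a primase subunit, had 8.64, 7.97 and 6.69. The helicase gene Mcm5 had 8.71, 8.30 and 7.23. Mcm2, another helicase subunit, was the 1 member not below its day 1 value on day 3, with 9.51, 9.14 and 9.71. The letters TTTGGCGC, a site form bound by E2F factors, were found in 5 of 23 members with a promoter window (21.7%) and in 0.585% of all genes, and TTTCCCGC in 4 of 23 (17.4%) and 1.24%. A window of Mcm6, another helicase subunit, at chr1:128359710-128359787 (minus strand) is shown with that form in capitals.
Mcm6: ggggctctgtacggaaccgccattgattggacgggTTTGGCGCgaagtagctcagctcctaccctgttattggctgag

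Replication-dependent histone genes, whose RNA is made mainly in S phase, showed almost all of their change after day 2. Of 16 listed genes 12 were matched and 11 passed the filter. The median change of the 11 was −0.12 from day 1 to 2 and −1.01 from day 2 to 3. At least 2-fold lower on day 3 than on day 1 were 7, beside 2.87% of all genes. All 11 were flat and then down, a pattern of 4.07% of all genes. In sparse cultures 3 of the 11 were at least 2-fold lower from day 1 to 3, beside 1.32% of all genes. The sparse median on that span was −0.38. Hist1h2ab had 7.97, 7.57 and 5.62 in dense and 10.51, 9.33 and 9.11 in sparse arrays. Hist1h1b, a linker histone gene, had 10.74, 10.48 and 9.15 in dense arrays. These genes have near-identical copies, so the values of single members are uncertain.

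Inhibitors of the cell cycle were split. Of 20 genes of cyclin-dependent kinase inhibitors and quiescence, 3 were at least 2-fold higher and 3 lower on day 3 than on day 1, beside 2.20% and 2.87% of all genes, with a median of 0.22 and 0.04 in sparse cultures. Cdkn2b, the kinase inhibitor p15, had 8.85, 10.13 and 10.39, with most of the difference by day 2. Txnip, a binder of thioredoxin that limits glucose uptake, had 8.87, 10.45 and 10.80, while the sparse arrays ran the other way with 8.05, 7.20 and 6.43. Sepp1, the selenium carrier selenoprotein P, had 5.18, 6.54 and 6.63. The 3 lower members were Cdkn2c (7.71, 7.21 and 6.34), Cdkn2d (7.31, 6.81 and 6.18), both kinase inhibitors, and Rbl1 (7.62, 7.16 and 6.42), a relative of the retinoblastoma protein, which did not pass 2-fold by the mean of its probe sets. Of 20 p53 target genes, 4 were higher and 0 lower, with a median of 0.16. The classic target Cdkn1a, the inhibitor p21, was not among them, with 5.31, 5.30 and 5.93. The 4 were Gadd45a (7.10, 8.01 and 10.57), a growth arrest and DNA damage gene, Trp53inp1 (6.21, 7.88 and 8.52), the nutrient sensor Sesn2 (6.21, 6.83 and 8.14) and the cytokine gene Gdf15 (4.19, 4.34 and 5.66). Sesn2 also stands on the amino acid list, and Gadd45a on the YAP and TAZ list.

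**Figure D3:**
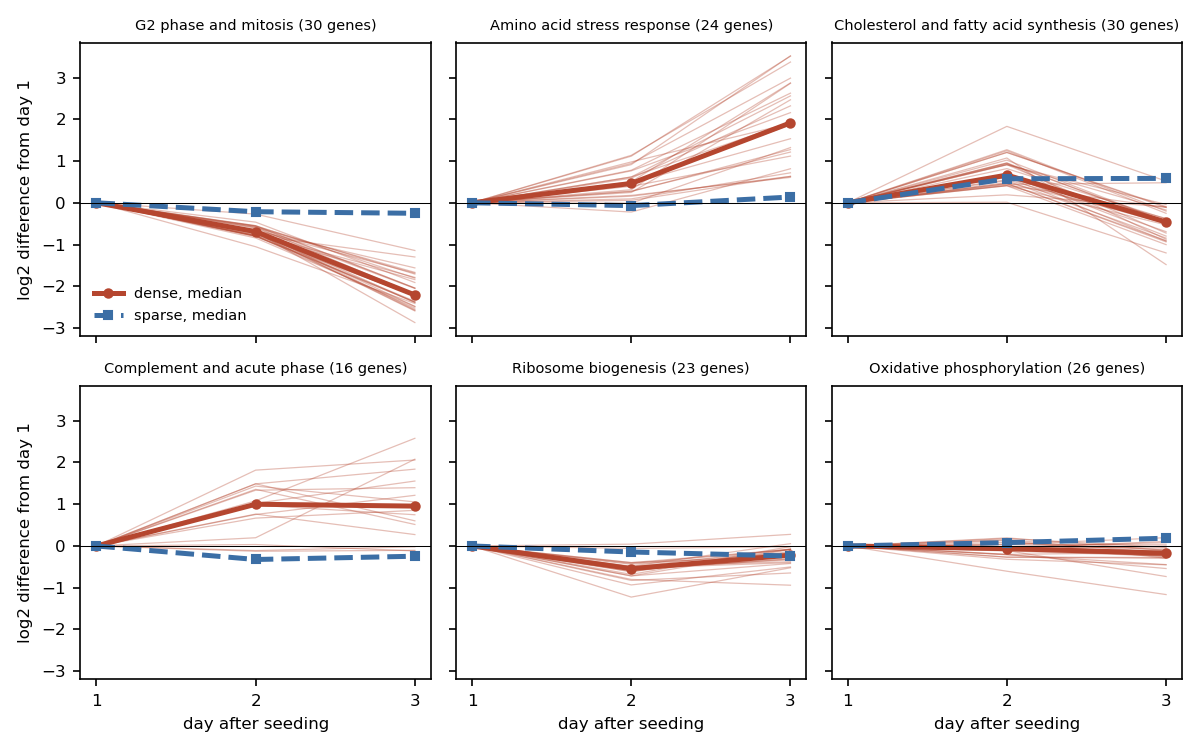
Log2 difference from day 1 of the same density (y axis) on days 1, 2 and 3 (x axis) for 6 gene lists; thin red lines are single genes in the dense cultures, the thick red line their median and the dashed blue line the median in the sparse cultures, 1 array per day. The mitosis list ended at −2.21 and the amino acid list at 1.91 in dense cultures, while the cholesterol list was at 0.66 on day 2 and −0.46 on day 3.

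Genes of the amino acid stress response were higher on day 3. All 24 members were above their day 1 value on day 3, and 19 were at least 2-fold higher and 0 lower, beside 2.20% of all genes that were higher. The median change was 0.46 from day 1 to 2, 1.36 from day 2 to 3 and 1.91 from day 1 to 3, against 0.14 from day 1 to 3 in sparse cultures. On day 2 they had begun to part, with 22 of 24 above day 1 and 2 at least 2-fold higher, beside 1.03% of all genes. The list was chosen as ATF4 targets and amino acid handling genes, except for Ddr2, a collagen receptor, which had 9.58, 9.74 and 10.22 and did not pass 2-fold.

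The list holds transcription factors and genes that feed back on them. Atf4, whose protein is controlled mainly through translation, had 8.50, 8.59 and 9.22 and did not pass 2-fold. Its partner genes Atf3 (5.85, 6.10 and 8.32) and Ddit3 (6.10, 6.60 and 8.97), which encodes CHOP, were both close to flat until day 2. Trib3, a pseudokinase that feeds back on ATF4, had 5.87, 6.99 and 9.38 in dense and 5.29, 5.76 and 6.31 in sparse arrays. Chac1, which breaks down glutathione, had 6.10, 6.72 and 8.66. Of the factors and feedback genes, every one had its highest value on day 3.

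Several amino acid transporter genes were higher on day 3. Slc7a3, which imports arginine and lysine, had 5.86, 6.78 and 9.38 in the dense arrays, a difference of 3.52 from day 1 to 3, and 5.03, 4.08 and 4.93 in the sparse arrays. Slc7a11, the cystine importer, had 5.71, 6.02 and 8.57, and the glycine transporter Slc6a9 had 7.05, 7.99 and 10.03. For these 3 genes the last step was the larger one, and in the sparse arrays that step was under 2-fold. Slc7a5 (8.95, 8.94 and 10.28) and Slc3a2 (10.41, 10.68 and 11.62), the chains of the leucine transporter, were past 2-fold as well.

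The list also holds enzymes. Cth, which makes cysteine from cystathionine, had 7.40, 8.53 and 10.77 in dense and 6.46, 6.07 and 6.20 in sparse arrays. Asns, asparagine synthetase, had 10.69, 11.09 and 11.82. Serine synthesis was represented by Phgdh (9.14, 9.20 and 9.78), Psat1 (10.64, 10.83 and 11.26) and Psph (6.85, 7.31 and 8.73). Only Psph, the last enzyme of that pathway, passed 2-fold among these 3. The mitochondrial folate enzymes Mthfd2 (8.81, 9.08 and 10.09) and Aldh1l2 (7.90, 8.68 and 10.53) were both highest on day 3.

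The C/EBP-ATF element, through which ATF4 and its partners act, has the letters TGATGNAA. It was found in 8 of 20 members with a promoter window (40.0%), namely Asns, Atf3, Chac1, Fgf21, Nupr1, Slc7a11, Trib3 and Vldlr, and in 4.51% of all genes. The stretches printed carry it in capitals on either strand. They lie at chr6:7693210-7693267 (minus strand) for Asns, at chr1:191183401-191183478 (minus) for Atf3, at chr2:119351014-119351091 (plus) for Chac1, at chr7:126625538-126625615 (minus) for Nupr1, a small stress protein, and at chr3:50443618-50443695 (minus) for Slc7a11, which holds it 2 times, once on each strand.
Asns: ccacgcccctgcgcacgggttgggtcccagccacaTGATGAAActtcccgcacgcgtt
Atf3: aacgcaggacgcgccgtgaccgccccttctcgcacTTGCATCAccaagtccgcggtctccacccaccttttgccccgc
Chac1: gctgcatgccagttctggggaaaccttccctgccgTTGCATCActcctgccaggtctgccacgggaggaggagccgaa
Nupr1: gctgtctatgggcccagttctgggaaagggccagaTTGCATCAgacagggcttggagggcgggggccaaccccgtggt
Slc7a11: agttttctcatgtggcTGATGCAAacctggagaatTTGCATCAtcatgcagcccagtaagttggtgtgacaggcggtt
Among these 5 the difference from day 1 to 3 ran from 1.13 for Asns to 2.86 for Slc7a11, and Nupr1 stood at 6.95, 7.72 and 9.11.

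Endoplasmic reticulum chaperone genes, which respond to unfolded proteins, did not follow the amino acid genes. Of 19 members 1 was at least 2-fold higher and 1 lower from day 1 to 3, beside 2.20% and 2.87% of all genes. The median was −0.02. Herpud1, which helps to clear misfolded proteins and is also a target of ATF4, had 8.91, 9.29 and 10.12. Sdf2l1, a chaperone cofactor, had 8.56, 8.36 and 7.45, and Hspa5, the main chaperone BiP, had 11.74, 11.73 and 12.01. The NRF2 and glutathione list had 2 of 20 members higher and 1 lower, with a median of −0.17. The 2 were Slc7a11, shared with the amino acid list, and Aox1 (5.58, 6.41 and 6.70), an aldehyde oxidase. The NRF2 target Nqo1 had 6.94, 6.69 and 6.0, and Gsr, glutathione reductase, had 8.90, 8.28 and 7.77.

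Sterol and fatty acid synthesis genes were highest on day 2. All 30 members were above their day 1 value on day 2, with a median change of 0.66, and 29 of the 30 were lower on day 3 than on day 2, with a median of −1.33. The last step was past 2-fold for 24 of 30, beside 1.71% of all genes. Of the 30, 19 were up and then down past 1.5-fold, a pattern of 0.889% of all genes. Over the whole span the median was −0.46 and 3 genes were at least 2-fold lower, beside 2.87% of all genes. Days 1 and 3 alone therefore show little of this course. In the sparse cultures the same genes were also higher on day 2, with a median of 0.58 from day 1 to 2. They then stayed level, with 0.04 from day 2 to 3 and 0.58 from day 1 to 3. The median changes from day 1 of the 2 densities thus parted only after day 2. The levels were apart before that. The median log2 levels of the list on days 1, 2 and 3 were 8.65, 9.43 and 7.96 in dense and 7.53, 8.30 and 8.43 in sparse arrays.

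Along the pathway, Hmgcs1, which makes the first committed precursor, had 9.63, 10.58 and 8.75 in the dense arrays. Idi1, an isomerase of the isoprenoid units, had 8.61, 9.68 and 7.13, and its step of −2.55 was the largest drop of any gene named between days 2 and 3. Insig1, a sterol-sensing protein, turned with the enzymes and had 9.66, 10.58 and 8.94. Day 2 peaks were ranked among genes whose highest dense value reached 6.03, with predicted genes and clone names passed over. Tm7sf2 and Acat2, a reductase and a thiolase of sterol synthesis, were among the 6 sharpest, with 5.71, 7.54 and 6.23 and with 8.27, 9.62 and 7.77. Acss2, which makes acetyl-CoA from acetate, peaked likewise with 4.97, 7.06 and 5.65. Fasn, fatty acid synthase, had no peak and stood at 8.48, 8.49 and 7.27. The sterol response element core CACNCCAC was found in 2 of 20 members with a window (10%), Hmgcs1 and Insig1, and in 7.12% of all genes, so no sequence is printed.

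Ribosome biogenesis genes mirrored this with a dip on day 2. Of 23 members, 22 were below their day 1 value on day 2 with a median of −0.54, and 22 were higher on day 3 than on day 2 with a median of 0.30. The dip passed 2-fold for 1 of the 23, beside 0.262% of all genes. This was Rrp12, an export factor of ribosome precursors, with 7.73, 6.51 and 7.21. Rrp9, of the small-subunit processing complex, had 8.36, 7.53 and 7.71, Bop1 had 8.77, 7.97 and 7.83 and Utp20 had 8.04, 7.11 and 7.54. From day 1 to 3 the median was −0.22, and in sparse cultures −0.24. Myc, the factor that drives these genes and the exception to the dip, had 9.71, 9.75 and 9.99. Day 2 troughs were ranked among the same genes as the day 2 peaks, those whose highest dense value reached 6.03. The 6 deepest included Utp14a (7.46, 6.67 and 7.48) and Heatr1 (9.10, 8.25 and 9.04), both of ribosomal RNA processing, and Trmt61a (6.47, 5.31 and 6.33), of transfer RNA methylation. The other 3 were the early gene Ier2 (7.52, 6.47 and 7.99), Neto2 (6.71, 5.96 and 7.77), a partner of kainate receptors, and Cnnm4 (6.42, 5.67 and 6.42), a magnesium transporter.

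Complement and acute phase genes were higher from day 2 on. Of 20 listed genes 16 passed the filter, and 8 of these were at least 2-fold higher on day 3 than on day 1 and 0 lower, beside 2.20% and 2.87% of all genes. Their median change was 1.00 from day 1 to 2, 0.07 from day 2 to 3 and 0.96 from day 1 to 3, against −0.25 in sparse cultures. The classical pathway protease gene C1s had 7.39, 8.88 and 9.23, and the central component gene C3 had 7.09, 8.11 and 8.64. Serping1, the inhibitor of that protease, had 5.64, 7.46 and 7.70. These 3 made most of their difference by day 2. A pair of acute phase genes went on after day 2: Lcn2, which binds bacterial iron carriers, had 7.23, 8.31 and 9.81 and Saa3, a serum amyloid, had 7.46, 7.66 and 9.54. Their sparse values went the other way, with 7.22, 3.87 and 3.84 for Lcn2.

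In other immune lists 0 to 2 members passed 2-fold in either direction. The interferon response list had 2 of 23 members higher and 0 lower from day 1 to 3, beside 2.20% and 2.87% of all genes. Its median was 0.47, and 0.05 in sparse cultures. The dense median was 0.056 with the filter at the median of named genes. The 2 were Ifi44 (3.96, 5.24 and 6.83) and Xaf1 (4.15, 5.03 and 5.35), both interferon-induced. Irf9, a subunit of the interferon-activated factor, had 5.68, 6.12 and 6.55, and Isg15 was near background with 3.81, 4.25 and 4.42. The core letters GAAANNGAA of the interferon response element were found in 10 of 19 members with a window (52.6%) and in 9.76% of all genes. In MHC class I presentation 0 of 16 passed 2-fold, with a median of 0.17. Of 22 chemokines and cytokines 1 was higher, Ccl5 (7.50, 8.23 and 8.93), which attracts T cells, and 1 lower, the monocyte attractant Ccl2 (7.90, 6.73 and 6.73), with a median of 0.15. The core letters GGANTTTCC of the NF-kB site were found in 6 of 15 of those with a window (40.0%) and in 1.45% of all genes. Among 18 NF-kB subunits and feedback genes 0 were higher and 1 lower, Ptgs2, the inducible prostaglandin synthase COX-2, with 10.35, 8.89 and 9.30, and the median was −0.05.

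**Figure D4:**
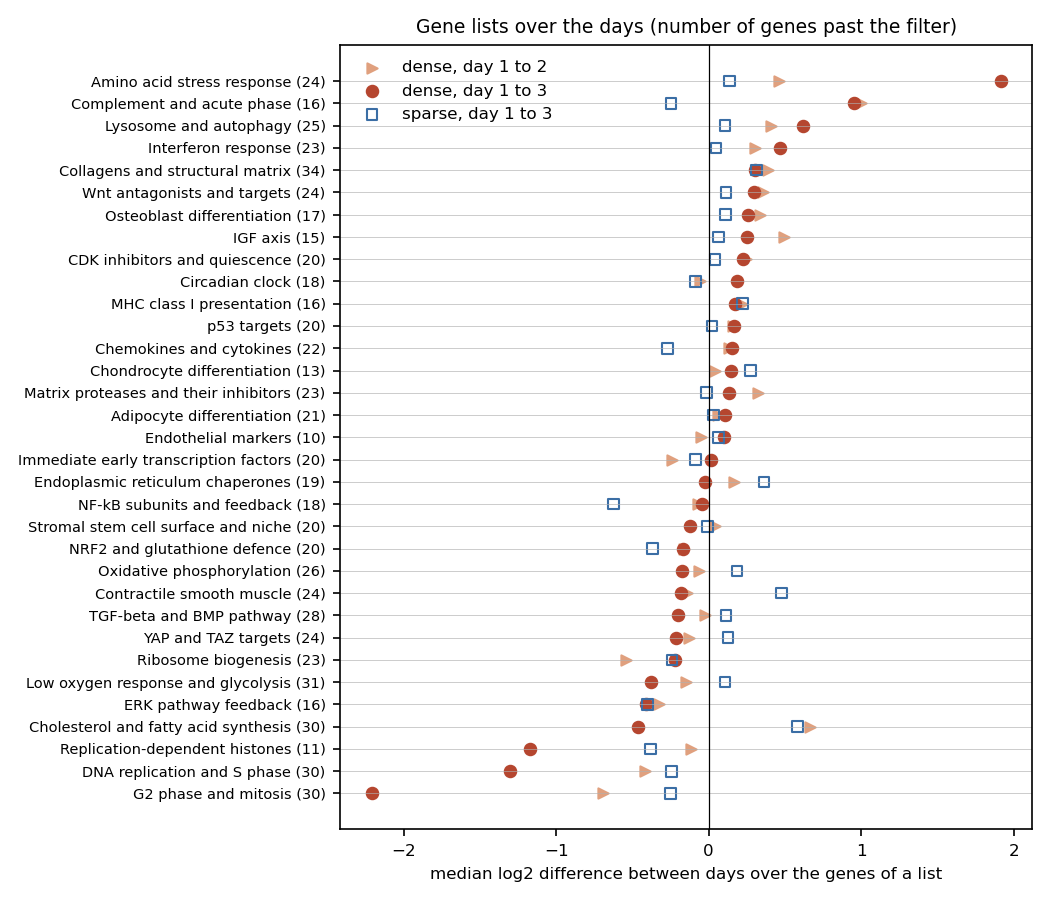
Median log2 difference between days (x axis) over the genes of each list with 10 or more members past the filter (y axis, number in brackets), for the dense cultures from day 1 to 2 (triangles) and day 1 to 3 (filled circles) and the sparse cultures from day 1 to 3 (open squares), 1 array per day. The division lists lie farthest to the left, down to −2.21, and the amino acid list farthest to the right, at 1.91.

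Matrix genes were partly higher by day 2. Of 34 collagen and structural matrix genes 7 were at least 2-fold higher and 1 lower on day 3 than on day 1. The shares over all genes were 2.20% and 2.87%. The median change of the 34 was 0.39 from day 1 to 2, −0.04 from day 2 to 3 and 0.31 from day 1 to 3. The sparse cultures also had 0.31 from day 1 to 3. Fmod, the collagen-binding fibromodulin, had 4.47, 5.63 and 6.54, and Ogn, osteoglycin of the same small leucine-rich family, had 7.54, 9.02 and 9.43. Fbn1, the microfibril protein fibrillin, had 8.39, 9.29 and 9.62 (not past 2-fold by the mean of its probe sets), and Col6a1 had 8.59, 9.50 and 9.60. Lum, lumican, had 3.45, 4.84 and 4.67 and lies near background on day 1, so its difference is understated. The 1 lower gene was Tnc, the injury-associated tenascin C, with 10.39, 10.16 and 8.44.

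Proteases of the matrix and their inhibitors split. Of 23 members 4 were higher and 4 lower from day 1 to 3, beside 2.20% and 2.87% of all genes. The list median was 0.13. Among the lower were the inhibitor gene Serpinb2 (5.80, 4.12 and 3.85), the urokinase gene Plau (7.61, 7.32 and 5.95) and its receptor gene Plaur (8.05, 6.97 and 6.50). These 3 belong to the plasminogen system. The largest higher value was that of Mmp13, a collagenase, with 5.22, 7.55 and 7.14, while the sparse arrays had 6.12, 4.10 and 3.81. Mmp11 had 7.35, 7.52 and 8.71, Serpine2, an inhibitor of thrombin, 7.35, 8.27 and 8.66, and the metalloprotease inhibitor Timp3 9.96, 10.19 and 11.11.

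Lysosome and autophagy genes had a median change of 0.41 from day 1 to 2 and 0.62 from day 1 to 3. On day 3, 24 of 25 were above their day 1 value but only 2 were past 2-fold, beside 2.20% of all genes. The sparse median was 0.11. Those 2 were Ctsk, described above, and Naglu (7.10, 7.70 and 8.20), which breaks down heparan sulfate. Hexa, a subunit of hexosaminidase, had 9.05, 9.69 and 9.93, and the autophagy receptor Sqstm1 had 10.12, 10.32 and 11.03.

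Targets of YAP and TAZ were mostly lower by small amounts, with 18 of 24 below and 6 above their day 1 value on day 3. Past 2-fold on that span, 2 were higher and 2 lower, beside 2.20% and 2.87% of all genes. The median was −0.21, and 0.13 in sparse cultures. The 2 lower were widely used reporters of this pathway. Ctgf, a matrix-bound growth factor modulator, had 11.52, 10.19 and 8.95 in dense and 10.79, 11.62 and 11.82 in sparse arrays, so the densities crossed after day 1. Ankrd1 had 9.10, 8.22 and 7.11 in dense and 8.71, 8.69 and 9.16 in sparse arrays. Cyr61, the other common reporter, had 11.68, 11.23 and 11.33 in dense arrays and did not follow them. Higher were Gadd45a, given above, and Tgfb2 (5.46, 6.54 and 6.67), a growth factor. Of 24 contractile smooth muscle genes 1 was higher, Itga1 (5.03, 6.20 and 6.30), and 2 were lower, Srf (8.24, 7.42 and 7.20), the factor that drives actin genes, and Vcl (9.90, 9.68 and 8.88), vinculin. Their median was −0.18 in dense and 0.48 in sparse cultures, and −0.38 in dense cultures with the filter at the median of named genes.

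Early response and growth factor feedback genes were mixed. As background, 2.20% of all genes were at least 2-fold higher and 2.87% lower from day 1 to 3. Of 20 immediate early transcription factor genes 1 was higher, Atf3, and 3 were lower on day 3 than on day 1, Jun (8.20, 7.91 and 7.03), Fosl1 (7.84, 6.90 and 6.76) and Klf6 (8.91, 8.58 and 7.84), with a median of 0.02. ERK pathway feedback genes had a median of −0.41, and −0.40 in sparse cultures. Of these 16 genes 3 were lower, Phlda1 (7.59, 6.65 and 5.90) and the phosphatases Dusp5 (7.26, 6.19 and 5.68) and Dusp1 (8.72, 7.56 and 7.63). The 1 higher was Spry1, a Sprouty inhibitor of receptor signalling, with 5.42, 5.80 and 7.47.

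Secreted signals of the stromal niche were higher in part. In the Wnt list 2 of 24 were higher from day 1 to 3, Rspo3 (4.30, 5.48 and 5.80), an amplifier of Wnt signals, and its receptor gene Lgr5 (4.39, 5.66 and 5.71), and the median was 0.30. From day 1 to 2, 6 of the 24 were higher, beside 1.03% of all genes, among them Sfrp2, a Wnt antagonist, with 9.43, 10.88 and 9.79. The IGF axis had 4 of 15 higher and 0 lower from day 1 to 3, beside 2.20% and 2.87% of all genes. Its median was 0.25. Igfbp4, an inhibitory binding protein, had 7.52, 8.24 and 9.46, the growth factor Igf2 6.27, 7.19 and 7.62, and Pappa2, a protease of binding proteins, 7.53, 8.61 and 8.77. Insr, the insulin receptor, had 7.40, 7.94 and 8.41. In the TGF-beta and BMP list 2 of 28 were higher and 2 lower, with a median of −0.20. The lower 2 were Bmper (7.70, 6.27 and 5.52), a binder of BMPs, and Id2 (8.73, 8.20 and 7.48), a target that blocks differentiation factors. The higher 2 were Tgfb2 and Tgfbi (7.32, 8.84 and 8.48), a matrix protein induced by this pathway.

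Lineage genes were mostly within 2-fold from day 1 to 3, a span on which 2.20% of all genes were higher and 2.87% lower. Of 17 osteoblast genes 2 were higher and 0 lower, Ibsp, bone sialoprotein, with 3.25, 4.42 and 6.28, and Ogn, with a list median of 0.26. The first value of Ibsp is at background. Alpl, alkaline phosphatase of mineralising cells, had 7.40, 7.86 and 8.30, and Sp7, the osteoblast factor osterix, had 5.64, 6.28 and 6.22. Of 21 adipocyte genes 1 was higher, Klf15 (4.62, 5.04 and 6.25), and the master factor Pparg had 6.83, 6.56 and 6.28, with a list median of 0.10. Of 13 chondrocyte genes 0 passed 2-fold, and Sox9 had 7.58, 7.21 and 6.95, with a median of 0.15. In the list of stromal stem cell and niche genes 1 of 20 was higher, Ly6a, the surface antigen Sca-1, with 8.34, 10.15 and 9.78. Lower were Mcam (7.47, 6.73 and 5.70), a marker of stromal progenitors and pericytes, and Nes (8.04, 7.43 and 6.33), nestin, and the list median was −0.12. Mcam ran the other way in sparse cultures, with 5.72, 7.48 and 8.51.

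Energy metabolism lists were lower by small amounts. Their counts from day 1 to 3 stand beside 2.20% of all genes at least 2-fold higher and 2.87% lower. Of 31 genes of the low oxygen response and glycolysis 2 were higher and 3 lower, with a median of −0.38 and 0.11 in sparse cultures. Higher were Ndrg1 (7.80, 8.18 and 9.69) and Ero1l (9.61, 9.60 and 11.08), an oxidase of the endoplasmic reticulum, both of which are also induced by stresses other than low oxygen. Lower were Adm (8.85, 7.94 and 7.06), a vessel-dilating peptide, the oxygen-sensing hydroxylase Egln3 (6.77, 5.91 and 5.44) and the mitochondrial protein Higd1a (6.82, 6.40 and 5.80). The core letters ACGTG of the hypoxia response element were found in 22 of 29 members with a window (75.9%) and in 21.8% of all genes, and members with and without it are among those given. Oxidative phosphorylation had 0 of 26 higher and 1 lower, Cycs, cytochrome c, with 9.96, 9.35 and 8.79 (not past 2-fold by the mean of its probe sets), and 22 of 26 were below their day 1 value on day 3, with a median of −0.17. Among 18 clock genes 0 were higher and 2 lower, Bhlhe41 (6.41, 5.76 and 5.27) and Nr1d1 (8.21, 7.19 and 7.09), with a median of 0.18. The hour of collection is not given in the sources used here.

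The 2 largest differences from day 1 to 3 lay outside these lists. Ostn, osteocrin, a secreted peptide of bone and muscle, had 3.30, 3.69 and 8.35 in the dense arrays, a difference of 5.05, and 3.65, 2.77 and 2.74 in the sparse arrays. Car6, a secreted carbonic anhydrase, had 3.03, 3.50 and 7.33. Both began at background, where the values are compressed, so the size of their folds is uncertain, and the mean of the Car6 probe sets gave a smaller difference. Nrip2, which binds nuclear receptors, had 4.24, 4.37 and 7.74, Cdsn, an adhesive protein of the outer skin layer, 6.70, 6.72 and 10.04, and Avil, an actin-binding protein of the villin family, 6.22, 5.64 and 9.43. These 5 were within 1.5-fold of their day 1 value on day 2 and high on day 3 only. Chchd10, a mitochondrial protein, had 5.0, 5.09 and 8.23, and the calcium pump gene Atp2a3 had 3.65, 3.89 and 6.71. Acot2, a mitochondrial thioesterase, had 5.98, 6.14 and 8.70. By contrast Odz4, a teneurin of the cell surface, with 3.95, 5.42 and 7.45, and Phyhd1, a dioxygenase relative, with 4.72, 5.89 and 8.19, were higher on both steps. None of these 10 genes was higher on day 3 than on day 1 in the sparse arrays by 2-fold.

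Among the largest differences from day 1 to 2 was that of Mme, the peptidase neprilysin of stromal surfaces, with 6.01, 8.89 and 8.98. Sned1, a matrix protein, had 5.36, 8.09 and 7.93. Islr, a surface protein of stromal cells also called meflin, had 6.10, 8.20 and 8.10, and Prelp, a leucine-rich matrix protein, 4.96, 7.05 and 7.44. On day 3 these 4 were within 1.5-fold of their day 2 value. Mgp, matrix Gla protein, which hinders calcification, was higher on day 2 alone with 7.72, 9.60 and 8.19, as were the protease inhibitor Serpinb1a (5.11, 7.50 and 6.09) and the folate enzyme Aldh1l1 (4.34, 6.25 and 4.75). Ly6c1 (7.69, 9.74 and 9.49) and Ly6c2 (6.08, 7.95 and 7.67) were higher too, but these neighbours are near-identical and their probe sets may share signal. Among the largest early drops were Edn1, endothelin, with 7.13, 5.51 and 5.81, the Notch target Hes1 with 6.32, 4.81 and 4.82, and the growth factor gene Ereg with 7.20, 5.82 and 6.08. Mcpt8, a protease of basophils, had 6.21, 4.55 and 4.07 in dense and 6.81, 6.35 and 5.30 in sparse arrays. Edn1 and Hes1 ran the other way in sparse arrays, with 5.91, 7.29 and 7.71 and with 5.59, 6.26 and 6.77.

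Late drops outside the division genes included Krt19, a keratin, with 6.90, 5.99 and 4.23 in dense and 5.38, 7.21 and 7.82 in sparse arrays. Gjb2, the gap junction protein connexin 26, had 6.73, 6.71 and 4.77, and a smaller drop by the mean of its probe sets. The tubulin genes Tubb2a (8.11, 8.30 and 6.36) and Tubb2b (8.62, 8.94 and 6.96) dropped together after day 2, but they are near-identical copies. The remaining large late drops were Depdc1a (7.21, 6.62 and 4.54), Ncaph (8.10, 7.57 and 5.57), a condensin subunit, Fbxo5 (8.56, 8.11 and 6.13), an inhibitor of the anaphase-promoting complex, and Shcbp1 (8.60, 7.82 and 5.86), genes of or near the division programme that stood on no list.

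**Figure D5:**
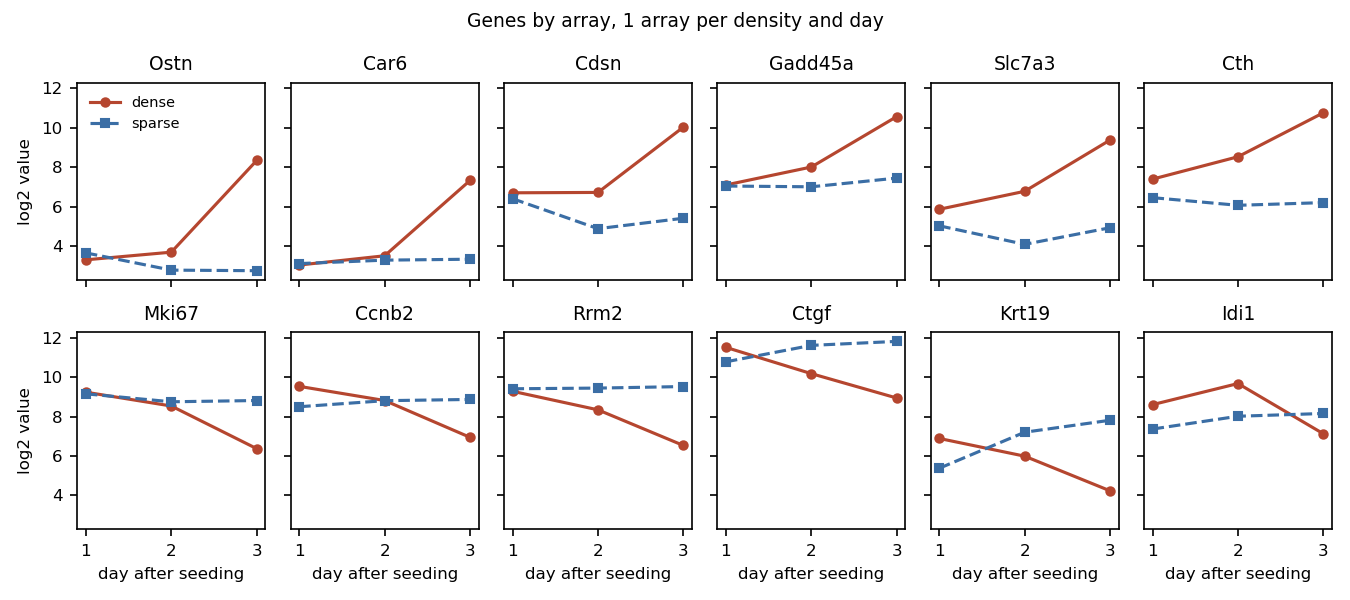
Log2 values (y axis) of 12 named genes on days 1, 2 and 3 (x axis) in the dense (red circles) and sparse (blue squares, dashed) cultures, each point 1 array. Ostn and Car6 stayed near background until day 2 and reached 8.35 and 7.33 on day 3, while Ctgf and Krt19 were lower each day in dense and higher each day in sparse cultures.

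Where the course over days differed between densities was the only question that allowed a test. A limma model with density, day as a number and their interaction was fitted to all 6 arrays, and the difference of slopes per day was tested. Its error is the departure of each density from a straight line over 3 days (2 residual degrees of freedom), not the spread of replicate cultures. Of 16762 genes, 13 (0.0776%) had a higher and 19 (0.113%) a lower slope in dense cultures (limma, adjusted p under 0.05), and 2713 had an unadjusted p under 0.05. Leaving out the sparse array of day 1, 2 or 3 left 0 calls in either direction, and leaving out the dense array of day 2 gave 915 and 825. Without the dense array of day 1 or 3 the calls were 546 and 690 or 311 and 127. A density left with 2 arrays is fitted exactly, so the error then comes from the other density alone. The counts thus depend on which density supplies the error.

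Genes past this test that were at least 2-fold apart between days 1 and 3 in dense and under 1.5-fold in sparse cultures were 7 with a higher slope and 5 with a lower one. Odz4 had the largest slope difference of the 7, 1.85 per day on the log2 scale (SE 0.16, limma adjusted p = 0.0231). Cth followed with 1.81 (SE 0.22, limma adjusted p = 0.0475) and Phyhd1 with 1.75 (SE 0.21, limma adjusted p = 0.0475). The others were Ibsp (1.57), Ifi44 (1.38), the matrix protein gene Itih5 (1.04) and Ugt1a9 (1.04), whose locus shares exons between several transcripts. Among those with a lower slope, Rrm2 had −1.43 (SE 0.18, limma adjusted p = 0.0483). Ankrd1 had −1.22, and the division genes Arhgap11a and Birc5 had −1.12 and −1.08. Itih5 had 3.72, 4.68 and 5.56 in the dense arrays, and Arhgap11a had 8.48, 7.71 and 6.54. Of the other calls, Mcam (−2.28), Krt19 (−2.55), Ctgf (−1.81) and Igfbp4 (1.97) were genes whose course ran in opposite directions at the 2 densities.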

How the data were processed

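Total RNA of 6 cultures was hybridised, biotin-labelled, to 6 Affymetrix arrays per the labels' protocols, 1 per density and day. The authors deposited 1 log2 value for each of 35556 probe sets on each array, and these values were used as they are. RMA and Partek are named, with no version, in the submitters' processing notes. The array model and the release of its annotation are not given in these sources. The authors' deposited table gave the gene symbols (25917 probe sets named, 9639 not) and also holds, for dense against sparse, a p-value and a fold score with a sign, neither of which was used. A further 6 columns of per-array values in that table were not used.

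Of 22349 symbols, 19017 were found as current symbols in RefSeq's genes of GRCm38.p6, 2421 matched as a synonym and 911 did not match. Of the probe sets of a symbol (1954 had several) the one with the highest mean was taken, and genes with a mean under the 25th percentile were left out, which kept 16762. Differences between days are differences of log2 values, called past 2-fold (steps past 1.5-fold), with no test. RMA compresses values near background, so folds of dim genes are understated. The number of arrays limits the precision.

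Slopes were compared by limma 3.58.1 under R 4.3.3 (linear fit with empirical Bayes variances, density by day, 2-sided, Benjamini-Hochberg over all genes kept); the step was tested on simulated data. Tables were made with pandas 2.3.3. Promoter windows are those of RefSeq for GRCm38.p6, where a gene counts if any of its windows holds the letters on either strand.

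The 38 gene lists, the rule for named genes and the dense cultures themselves were chosen with earlier results of these data known. Named are the 12 largest changes in each direction per interval among genes whose highest dense value reached the median of the genes kept (6.03), the 6 sharpest day 2 peaks and troughs, up to 5 members of a list with the largest change from day 1 to 3, and slope calls that were at least 2-fold in dense and under 1.5-fold in sparse cultures. Predicted genes, clone names and the like were passed over, and some picked genes are not reported here; other list members are named for their known role and were chosen after their values were seen. Alternatives were quantile normalization, centring on array medians, no filter, a filter at the median, the mean of all probe sets, values raised to the filter floor and, for slopes, leaving out each array, same-day arrays as a block and a variance trend.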

Additional observations from a re-analysis of the deposited data

Results flagged for a closer look

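The difference of day slopes between dense and sparse cultures passed the limma test for 13 genes with a higher and 19 with a lower slope in dense cultures. Each is a difference between the groups in the same course over days. The 7 higher ones named, in log2 units per day, were Odz4 at 1.85, Cth at 1.81, Phyhd1 at 1.75, Ibsp at 1.57, Ifi44 at 1.38, Itih5 at 1.04 and Ugt1a9 at 1.04. The lower ones named were Rrm2 at −1.43, Ankrd1 at −1.22, Arhgap11a at −1.12 and Birc5 at −1.08. The error term is the bend of 3 points from a straight line, so a turn on day 2, such as that of the sterol synthesis genes, counts as error in this test.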

How the results depend on the processing

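Of 36 recomputed counts of genes past 2-fold in dense cultures, 35 stayed within 1.5 times; with arrays centred on their medians, 77 in place of 44 genes were lower from day 1 to 2. Of 226 recomputed list medians from day 1 to 3, 219 moved by less than 0.14, the median absolute change from day 2 to 3 in sparse cultures, and 0 changed sign while past that size. Complement and acute phase moved to 0.68 without a filter and to 1.40 with a filter at the median. That filter, which leaves fewer genes, also gave interferon response 0.056, contractile smooth muscle −0.38, macrophage markers −0.80, endothelial markers −0.11 and osteoclast markers 1.66, and left no granulocyte or lymphocyte marker. These marker values rest on very few genes, that of osteoclasts being the change of Ctsk, and do not describe the lists. Of 2298 recomputed changes of 766 genes from day 1 to 3, 28 moved by 0.14 or more. Among changes of at least 2-fold 0 changed sign, and sign changes of smaller ones were not counted.

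Slope calls (13 higher, 19 lower) were unstable, and for the settings with all 6 arrays the cause was not tested. They were 7 and 13 after quantile normalization, 4 and 14 after centring, 3 and 2 without a filter, 2 and 2 with the filter at the median, and 32 and 52 with a variance trend. With same-day arrays as a block, the pairing tried, they were 270 and 277 on 1 residual degree of freedom. Leaving out single arrays gave 0 to 915 higher and 0 to 825 lower calls: 0 and 0 without the sparse array of day 1, 2 or 3 (809, 2135 and 1391 genes at an unadjusted limma p under 0.05), and 546 and 690, 915 and 825, or 311 and 127 without the dense array of day 1, 2 or 3. The density left with 2 arrays is then fitted exactly, and the error is that of the other density alone.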
